A study of Mus musculus with 12 samples.

Results

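The genes described here are 37 amino acid transporters, the plasma membrane and lysosomal carriers that move amino acids, taurine or betaine across membranes. They were chosen by gene symbol, and all 37 were found among the 46403 genes listed for these kidneys. All 37 also passed the expression filter, among 23742 genes tested. In the annotation used here each of them is protein coding.

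Polyadenylated RNA of the entire right kidney was sequenced from untreated mice in 12 libraries and 3 groups. The wildtype group (n = 5) carried R26StopFLMYC, a MYC transgene at the Rosa26 locus behind a floxed stop cassette, together with floxed Grhl2 on both chromosomes, and no Cre is named for it. The Myc group (n = 3) is labelled as Myc overexpression; the sources used here give neither its cross nor its Grhl2 alleles, and HET stands in the identifiers of its libraries. The Grhl2KO_Myc group (n = 4) is labelled as Grhl2 knockout with Myc overexpression and came from HoxB7-Cre; Grhl2flox/+ mice bred to R26StopFLMYC; Grhl2flox/flox mice. HoxB7-Cre acts in the ureteric bud lineage, which forms the collecting ducts, so the recombined cells of that group are a part of the whole kidney that was sequenced. Grhl2 encodes an epithelial transcription factor, and the title of the study concerns its bearing on renal cyst growth. The sources used here state neither age nor sex, nor whether each library of a group is from a mouse of its own. Each p-value therefore measures the spread between these samples, which may be technical.

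Amino acids filtered in the glomerulus are taken back almost completely by the proximal tubule. Apical carriers bring them from the urine into the cell, and basolateral exchangers and facilitated carriers pass them on to the blood. Several carriers work as a pair of a heavy chain, which brings the complex to the membrane, and a light chain, which carries the amino acid. Outside the tubule, and in growing cells, uptake carriers for glutamine, leucine and basic amino acids feed protein synthesis and the signalling through mTORC1, and Slc7a5 and Slc1a5 are known as genes that MYC can raise.

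Levels are given as CPM, counts scaled to library size with TMM factors, and group values as mean ± SD. Differences are log2 fold changes with their standard error (SE) from edgeR, and a gene was called where its p, adjusted over all 23742 genes, was under 0.05. Total counts lay between 52973520 and 108164810 per library. Grhl2 was at 24.0 to 29.3 CPM in wildtype, 28.2 to 33.1 CPM in Myc and 18.5 to 24.3 CPM in Grhl2KO_Myc, and the gene Myc was at 19.9 to 34.4, 19.1 to 27.6 and 27 to 32.2 CPM in the same order; the sources used here do not state whether transgene reads were counted as Myc. The Y-linked transcript Ddx3y was above 10 CPM in 1 wildtype, 1 Myc and 2 Grhl2KO_Myc libraries. Grhl2KO_Myc 3 had 0 CPM of Ddx3y and 0.213 CPM of Xist, whereas every other library had at least 62.8 CPM of one of them. Of 20 markers of the proximal tubule, none a member of the 37, all were measured and none was at 0. Their score, the mean log2 CPM relative to the mean of the 12 libraries, was -1.18 in wildtype 4, -1.10 in Grhl2KO_Myc 3 and -0.95 in Grhl2KO_Myc 4, and between -0.13 and 0.73 in the other 9 libraries. Their summed level was 1990 to 6570 CPM in wildtype, 3970 to 5550 CPM in Myc and 2010 to 5050 CPM in Grhl2KO_Myc. In whole kidney RNA, fewer cells of a type and less RNA per cell cannot be told apart.

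Sequence upstream of the start site was at hand for 28 of the 37 genes, with 46 start sites, in RefSeq's GRCm38.p6. The 250 bases before each start were searched on both strands for 4 motifs, and 5 promoters are shown. They belong to 3 of the genes called higher in Grhl2KO_Myc and to 2 genes that carry a motif of a regulator of this pathway. Slc6a9, also called higher, was searched and held none of the 4 motifs, but is not shown. Slc7a1 is shown at chr5:148399905-148400154 on the minus strand, Slc7a6 at chr8:106168604-106168853 on the plus strand and Slc1a3 at chr15:8710808-8711057 on the minus strand. None of the 4 motifs occurs in these 3 windows. Slc7a11 is shown at chr3:50443614-50443863 on the minus strand, with 2 matches to the ATF4 element TGATGNAA in capitals, the nearer of which begins 47 bases before the start. Slc36a1 is shown at chr11:55204090-55204339 on the plus strand, with the E-box CACGTG, a motif bound by MYC, in capitals and beginning 31 bases before the start.
Slc7a1: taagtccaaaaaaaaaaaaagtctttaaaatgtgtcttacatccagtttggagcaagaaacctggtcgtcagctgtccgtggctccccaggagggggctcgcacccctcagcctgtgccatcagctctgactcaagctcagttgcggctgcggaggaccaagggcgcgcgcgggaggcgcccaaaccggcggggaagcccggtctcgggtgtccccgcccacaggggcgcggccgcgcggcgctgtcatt
Slc7a6: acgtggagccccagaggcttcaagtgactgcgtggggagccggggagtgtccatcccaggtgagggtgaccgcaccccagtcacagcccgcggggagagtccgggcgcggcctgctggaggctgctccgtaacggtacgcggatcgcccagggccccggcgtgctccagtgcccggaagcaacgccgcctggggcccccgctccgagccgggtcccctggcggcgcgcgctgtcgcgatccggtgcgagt
Slc1a3: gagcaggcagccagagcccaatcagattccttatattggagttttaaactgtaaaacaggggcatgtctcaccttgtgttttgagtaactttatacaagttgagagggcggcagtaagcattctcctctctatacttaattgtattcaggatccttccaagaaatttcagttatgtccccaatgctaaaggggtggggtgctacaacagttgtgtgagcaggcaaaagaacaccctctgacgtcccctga
Slc7a11: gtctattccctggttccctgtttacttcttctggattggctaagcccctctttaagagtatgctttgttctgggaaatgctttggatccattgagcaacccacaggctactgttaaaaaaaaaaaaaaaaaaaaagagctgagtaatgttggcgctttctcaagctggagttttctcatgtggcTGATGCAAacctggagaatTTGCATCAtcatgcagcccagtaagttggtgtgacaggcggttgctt
Slc36a1: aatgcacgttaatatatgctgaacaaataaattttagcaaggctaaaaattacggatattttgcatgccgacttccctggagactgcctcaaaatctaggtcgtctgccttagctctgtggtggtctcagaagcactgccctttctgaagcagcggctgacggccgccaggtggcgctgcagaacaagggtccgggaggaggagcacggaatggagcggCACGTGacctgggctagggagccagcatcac

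The E-box was present in 6.52% of the 46 member promoters and in 6.02% of the 32851 promoters of the same length. The ATF4 element was present in 6.52% of the member promoters and in 3.45% of all. The GRHL palindrome AACCGGTT was present in 0 member promoters and in 0.116% of all. The short HNF1 motif GTTAAT, read by a regulator of proximal tubule genes, was present in 10.9% of the member promoters and in 6.43% of all. The genes with an E-box were Slc36a1, Slc38a7 and Slc43a1, and those with an ATF4 element were Slc7a11 and Slc7a7. The genes with the HNF1 motif were Slc16a10, Slc36a1, Slc6a13, Slc6a20a and Slc7a7. None of the genes with an E-box or an ATF4 element was called in any comparison, but Slc7a5, Slc1a5 and Slc36a2, which were called against wildtype, were not among the promoters searched. A match is a description of letters and not a bound site.

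In the wildtype kidneys, the highest levels per kilobase of exon belonged to carriers of different roles. Slc3a1, the heavy chain of the apical cystine carrier, stood at 68.0 ± 33.0 CPM per kb (n = 5). It was followed by Slc38a2, a sodium-coupled carrier of small neutral amino acids, at 57.5 ± 8.53 CPM per kb. Slc3a2, the heavy chain of the basolateral exchangers, came next at 46.2 ± 6.48 CPM per kb. The order of these 3 genes lay within their spread. Slc6a18, an apical carrier of neutral amino acids, was at 40.4 ± 15.1 CPM per kb and Slc6a6, the taurine carrier, at 33.3 ± 3.97 CPM per kb. The remaining genes grouped as apical were lower. Slc7a9 was at 11.4 ± 5.38, Slc1a1 at 7.84 ± 3.23, Slc6a20b at 6.11 ± 3.49 and Slc6a20a at 3.02 ± 1.44 CPM per kb. At the other end, Slc1a2, a glutamate carrier best known from glia, was at 0.054 ± 0.0175 CPM per kb and Slc36a2, a proton-coupled carrier, at 0.269 ± 0.0969 CPM per kb. Slc7a11, the light chain of the cystine and glutamate exchanger, came next from the end at 1.04 ± 0.0965 CPM per kb, a level that does not overlap those of Slc1a2 and Slc36a2.

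**Figure D1:**
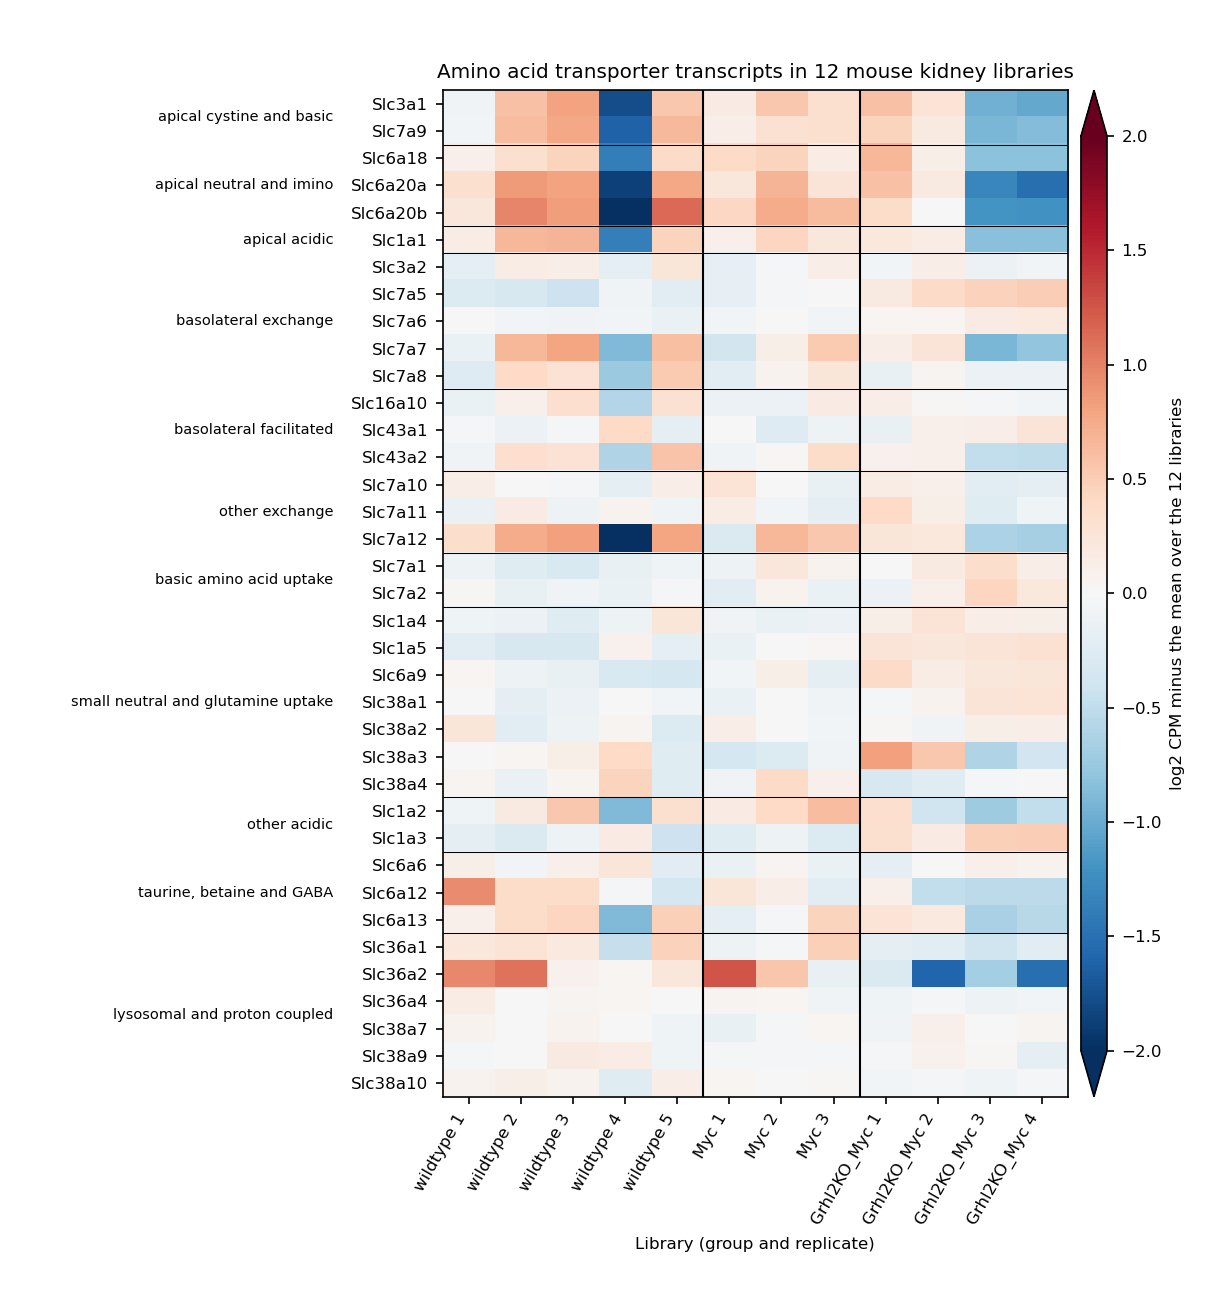
Each row is 1 of the 37 transporter genes, ordered by role, and each column 1 library; colour gives log2 CPM minus the mean of that gene over the 12 libraries, from blue (low) to red (high). Wildtype 4, Grhl2KO_Myc 3 and Grhl2KO_Myc 4 form blue columns in the apical rows, and Slc7a5, Slc1a5 and Slc1a3 are redder in the 4 Grhl2KO_Myc libraries.

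Between Grhl2KO_Myc and wildtype, 7 of the 37 transporters were called, 6 higher and 1 lower, which is 18.9% against 6.67% of all genes tested. Among all genes 4.06% were called higher and 2.61% lower. The libraries of both groups did not overlap for 6 transporters that were higher and 2 that were lower, against 9.47% of all genes in either direction. The median log2 fold change of the 37 was -0.07 against -0.01 over all genes, with 14 above 0 and 23 below. The called genes lay in the groups for leucine and basic amino acid exchange, glutamine and glycine uptake, basic amino acid uptake, glutamate uptake and proton-coupled transport. Of the 6 genes grouped by hand as apical, 0 were called. Slc36a2 was grouped with the proton-coupled carriers, whatever its membrane.

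Of the 5 basolateral exchange genes, 2 were called, and both were light chains that pair with the Slc3a2 product. Slc7a5, the light chain that exchanges leucine and other large neutral amino acids (chromosome 8, 121881150 to 121907694, minus strand, mm10), was at 30.8, 29.7, 27.8, 35.6 and 32 CPM in wildtype 1 to 5. It was at 33.4, 36.3 and 37 CPM in Myc 1 to 3 and at 42, 48.6, 51.0 and 52.4 CPM in Grhl2KO_Myc 1 to 4. Every Grhl2KO_Myc library lay above every other library. Against wildtype the log2 fold change of Slc7a5 was 0.64 (SE 0.08, edgeR adjusted p = 0.0008), and it stayed between 0.56 and 0.69 and called in 21 of 21 alternatives, with adjusted p at most 0.04.

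Slc7a6, a light chain that exchanges basic against neutral amino acids, was at 49.5, 47.8, 47.3, 47.9 and 45.2 CPM in wildtype 1 to 5. It was at 48.0, 49.9 and 47.7 CPM in Myc and at 51.3, 50.9, 55.9 and 56.8 CPM in Grhl2KO_Myc. The Grhl2KO_Myc libraries lay above the others by a small margin, and the log2 fold change against wildtype was 0.18 (SE 0.046, edgeR adjusted p = 0.041). This call is the least stable, since it held in 6 of 21 alternatives, and leaving out any single library other than wildtype 4 or Grhl2KO_Myc 2 raised the adjusted p to between 0.053 and 0.13. Without wildtype 4, Grhl2KO_Myc 3 and Grhl2KO_Myc 4, the libraries lowest in proximal tubule transcripts, the value of Slc7a6 was 0.10 (adjusted p = 0.22).

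Slc3a2, the heavy chain both light chains need, was at 117, 148, 146, 116 and 157 CPM in wildtype, 118, 131 and 145 CPM in Myc and 128, 146, 123 and 128 CPM in Grhl2KO_Myc. The groups overlapped fully. Its log2 fold change against wildtype was -0.06 with a 95% interval, taken from the SE, of -0.26 to 0.14 (edgeR adjusted p = 0.78). The other light chains were not called either. Slc7a8, a neutral exchanger of the proximal tubule, was at 103 ± 33.3 CPM in wildtype and 89.8 ± 6.12 CPM in Grhl2KO_Myc (log2 fold change -0.19, SE 0.21, edgeR adjusted p = 0.64). Slc7a7, the light chain that exports basic amino acids to the blood, was at 58.0 ± 23.4 and 39.3 ± 16.0 CPM (log2 fold change -0.56, SE 0.35, edgeR adjusted p = 0.38).

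**Figure D2:**
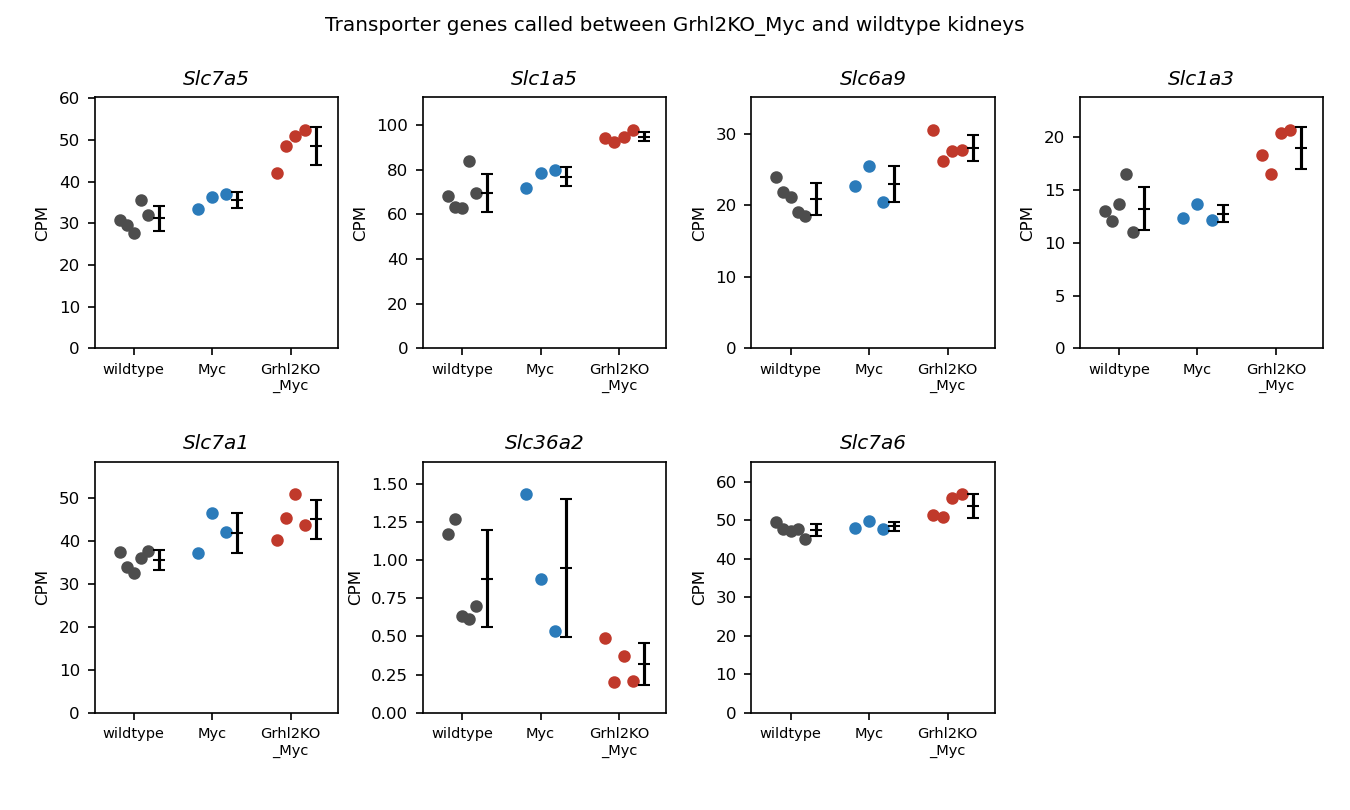
Each panel is 1 of the 7 transporter genes called between Grhl2KO_Myc and wildtype, with CPM on an axis from 0; points are libraries, and the bars beside them give the mean and SD of the group. For Slc7a5 the 4 Grhl2KO_Myc libraries (42 to 52.4 CPM) sit above the 5 wildtype (27.8 to 35.6 CPM) and 3 Myc libraries (33.4 to 37 CPM), and Slc36a2 alone is lower.

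Because the 6 light chains that pair with Slc3a2 share 1 partner, their levels per kilobase were summed and each was given as a share of the sum. Slc7a5 made up 14.6, 10.4, 9.88, 20.5 and 11.0% of the light chain transcripts in wildtype 1 to 5. The share was 15.9, 14.9 and 13.6% in Myc and 17.4, 18.4, 22.8 and 22.9% in Grhl2KO_Myc. The Grhl2KO_Myc libraries were the highest apart from wildtype 4, which overlapped them. The means were 13.3 ± 4.45% in wildtype, 14.8 ± 1.16% in Myc and 20.4 ± 2.89% in Grhl2KO_Myc. Slc7a7 had means of 25.3 ± 6.12%, 23.3 ± 4.19% and 18.2 ± 6.33% in the same order, and the Slc7a7 share was lowest in Grhl2KO_Myc 3 (12.4%), Grhl2KO_Myc 4 (13.1%) and wildtype 4 (16.2%). Slc7a8 was the largest share in every library, with 30.0 to 42.8%. The sum of the light chains over Slc3a2, both per kilobase, was 1.2 in wildtype 4 and 1.41 to 1.54 in the other 11 libraries.

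**Figure D3:**
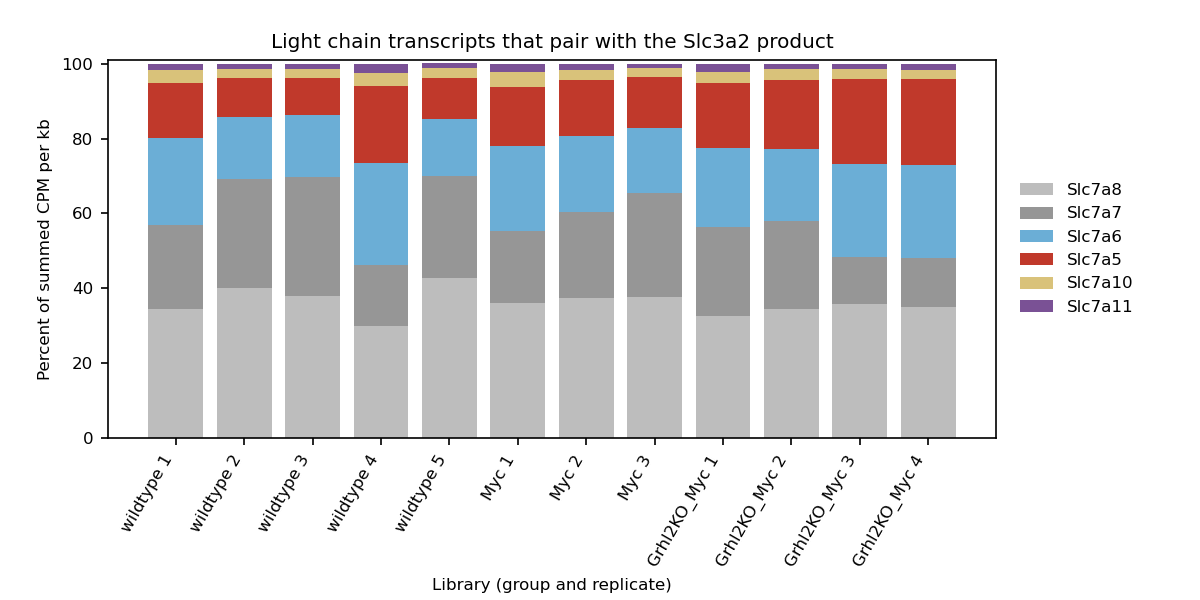
Stacked bars give, for each library, the percent of summed CPM per kb of the 6 light chain genes that pair with Slc3a2. The Slc7a5 segment (red) spans 17.4 to 22.9% in Grhl2KO_Myc and 9.88 to 20.5% in wildtype, where wildtype 4 has the largest.

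Of the 7 genes for uptake of small neutral amino acids and glutamine, 2 were called, both higher. Slc1a5, the main glutamine exchanger of growing cells (chromosome 7, 16781340 to 16798274, plus strand, mm10), was at 68.1, 63.3, 62.9, 83.7 and 69.5 CPM in wildtype 1 to 5. It was at 71.9, 78.4 and 80 CPM in Myc and at 94.1, 92.5, 94.6 and 97.7 CPM in Grhl2KO_Myc. The Grhl2KO_Myc libraries lay close together and above all others. The log2 fold change against wildtype was 0.45 (SE 0.076, edgeR adjusted p = 0.005), and the call held in 20 of 21 alternatives. Slc6a9, the glycine carrier of the plasma membrane (chromosome 4, 117834506 to 117875198, plus strand), was at 24.0, 21.8, 21.2, 19.0 and 18.5 CPM in wildtype, 22.7, 25.5 and 20.5 CPM in Myc and 30.5, 26.1, 27.5 and 27.7 CPM in Grhl2KO_Myc. Again the Grhl2KO_Myc libraries lay above all others, with a log2 fold change against wildtype of 0.42 (SE 0.088, edgeR adjusted p = 0.015). Without Grhl2KO_Myc 1 the adjusted p of Slc6a9 was 0.053, and without the 3 libraries low in proximal tubule transcripts it was 0.062. Exons of Slc6a9 overlap B4galt2, Ccdc24 and Gm17114 on the other strand, whose reads a library without strand cannot tell apart. The same limit holds for Slc3a1 (Prepl), Slc7a7 (Oxa1l), Slc6a20b (Sacm1l) and Slc7a10 (Lrp3), among other members.

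The other 5 genes of this group were not called. Slc38a1, a sodium-coupled glutamine carrier, was at 78.4 ± 4.31 CPM in wildtype and 91.5 ± 9.10 CPM in Grhl2KO_Myc (log2 fold change 0.22, SE 0.067, edgeR adjusted p = 0.069), and it was called without wildtype 4 (adjusted p = 0.037) or without Grhl2KO_Myc 1 (0.04). Slc1a4, an exchanger of alanine, serine and cysteine, was at 12.8 ± 1.66 and 14.9 ± 0.793 CPM (0.22, SE 0.087, adjusted p = 0.17) and was called without wildtype 5 (0.03). Slc38a2, which cells raise when amino acids run short, had a log2 fold change of 0.10 with a 95% interval from -0.09 to 0.29. Slc38a4, a relative with a wide range of substrates, was at 70.0 ± 13.2 and 60.9 ± 6.67 CPM (-0.20, SE 0.13).

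Slc38a3, the basolateral carrier that brings glutamine into the proximal tubule for ammonia production, had the 2 highest and the 2 lowest of the 12 libraries in 1 group. It was at 29.0, 29.9, 31.7, 38.3 and 24.7 CPM in wildtype and 22.9, 24.1 and 27.7 CPM in Myc. In Grhl2KO_Myc it was at 51.4, 42.1, 19.2 and 22.4 CPM, Grhl2KO_Myc 1 and 2 being the high libraries and Grhl2KO_Myc 3 and 4 the low ones. With all libraries the log2 fold change against wildtype was 0.14 (SE 0.25, edgeR adjusted p = 0.79). Without wildtype 4, Grhl2KO_Myc 3 and Grhl2KO_Myc 4 it was 0.69 (adjusted p = 0.008) against wildtype and 0.90 (adjusted p = 0.0089) against Myc, each with 2 Grhl2KO_Myc libraries left. Without Grhl2KO_Myc 1 alone it was -0.15 against wildtype (adjusted p = 0.75).

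Among the carriers of basic amino acids, Slc7a1, the widely expressed arginine and lysine carrier (chromosome 5, 148327410 to 148399904, minus strand), was called. Slc7a1 was at 37.3, 33.8, 32.4, 36.1 and 37.7 CPM in wildtype, 37.1, 46.5 and 42 CPM in Myc and 40.1, 45.2, 50.8 and 43.7 CPM in Grhl2KO_Myc. Grhl2KO_Myc lay above wildtype but overlapped Myc, with a log2 fold change against wildtype of 0.34 (SE 0.081, edgeR adjusted p = 0.027). The call was lost without wildtype 2 or 3 (adjusted p = 0.073 and 0.074) and without Grhl2KO_Myc 2, 3 or 4 (0.056, 0.083 and 0.06). Slc7a2, its relative of liver and immune cells, was at 20.3 ± 1.00 and 24.0 ± 3.80 CPM (log2 fold change 0.25, SE 0.099, edgeR adjusted p = 0.16).

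Of the other carriers of acidic amino acids, Slc1a3, a glutamate and aspartate carrier (chromosome 15, 8634124 to 8710764, minus strand), was called. Slc1a3 was at 13.0, 12.1, 13.7, 16.5 and 11.0 CPM in wildtype, 12.4, 13.7 and 12.2 CPM in Myc and 18.3, 16.5, 20.4 and 20.7 CPM in Grhl2KO_Myc. The lowest Grhl2KO_Myc library and the highest wildtype library round to the same value, but no Grhl2KO_Myc library lay below a library of another group. The log2 fold change against wildtype was 0.52 (SE 0.11, edgeR adjusted p = 0.017). Without Grhl2KO_Myc 3 or 4 the adjusted p of Slc1a3 was 0.055 and 0.059. Slc1a2 stood at 0.361 to 1.02 CPM over the 12 libraries, with 26 to 103 counts, and was not called (log2 fold change -0.35, SE 0.29, edgeR adjusted p = 0.51).

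Markers of other cell types were also called, where 4.06% of all genes were higher and 2.61% lower. The summed level of 6 leukocyte markers was 75.9 to 89.3 CPM in wildtype, 74.4 to 95.8 CPM in Myc and 96.3 to 107 CPM in Grhl2KO_Myc and 1 of the 5 tested was called higher. Of markers of principal cells, the collecting duct cells in which HoxB7-Cre acts, 3 of 9 were called lower and 0 higher. The list was mixed, since Hsd11b2 was at 25.7 to 75.4 CPM in wildtype and 91.4 to 103 CPM in Grhl2KO_Myc. Aqp3 was at 61.5 to 96.6 and 95.9 to 119 CPM. Summed levels of the 9 markers were 591 to 929 CPM in wildtype, 729 to 863 CPM in Myc and 665 to 809 CPM in Grhl2KO_Myc. Podocyte markers (2 of 6 lower) summed to 925 to 998, 735 to 900 and 685 to 755 CPM in the same order, and endothelial markers (3 of 6 lower) to 528 to 582, 485 to 523 and 467 to 497 CPM. Intercalated cell markers (1 of 7 higher, 1 lower), of the same collecting duct, summed to 116 to 145, 173 to 200 and 131 to 152 CPM. Of the thick ascending limb and the distal convoluted tubule, 0 of 6 and 0 of 5 markers were called by edgeR, with 5 and 4 at an unadjusted p under 0.05 and median log2 fold changes against wildtype of -0.39 and -0.50. Of the proximal tubule, 1 of 20 markers was called lower, and 1 of 10 of its late segment. Their median log2 fold changes against wildtype were -0.53 and -0.23. None of these markers was at 0 in all libraries. The part of these cells in the result was not tested.

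Only 1 transporter was called lower. Slc36a2, a proton-coupled carrier of glycine and proline, was at 1.17, 1.27, 0.635, 0.611 and 0.701 CPM in wildtype, 1.43, 0.875 and 0.537 CPM in Myc and 0.49, 0.20, 0.373 and 0.21 CPM in Grhl2KO_Myc. The Grhl2KO_Myc libraries lay below all others, at 15 to 38 counts each. The log2 fold change of Slc36a2 was -1.47 against wildtype (SE 0.38, edgeR adjusted p = 0.039). The call was lost without any single one of wildtype 1, 2, 3 and 5 or Grhl2KO_Myc 2, 3 and 4, with adjusted p between 0.052 and 0.12.

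The lysosomal and proton-coupled carriers were otherwise not called. Slc36a1, which lets small amino acids leave the lysosome, was at 33.5, 35, 33.2, 21.2 and 39.8 CPM in wildtype, 27.2, 28.5 and 40.4 CPM in Myc and 25.4, 25.2, 22.0 and 24.8 CPM in Grhl2KO_Myc. Apart from wildtype 4, every library of the other groups was above the Grhl2KO_Myc ones. Its log2 fold change against wildtype was -0.42 (SE 0.16, edgeR adjusted p = 0.15), and -0.54 (adjusted p = 0.0095) without wildtype 4. Slc36a4, a carrier of proline and tryptophan, was at 48.0 ± 1.97 and 44.2 ± 1.02 CPM with no overlap (-0.12, SE 0.045, adjusted p = 0.14). Slc38a9, the lysosomal arginine sensor of the mTORC1 pathway, had a log2 fold change of -0.07 with a 95% interval from -0.21 to 0.07, and Slc38a7, the lysosomal glutamine exporter, had 0.00 with an interval from -0.12 to 0.12. Slc38a10 was at 199 ± 19.9 and 187 ± 3.61 CPM, and without wildtype 4 its log2 fold change was -0.15 (adjusted p = 0.016).

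The carriers of taurine, betaine and GABA were not called. Slc6a12, the betaine carrier that cells of the renal medulla use against osmotic stress, was at 8.97, 6.0, 6.0, 4.54 and 3.64 CPM in wildtype, 5.54, 5.12 and 4.03 CPM in Myc and 5.03, 3.30, 3.23 and 3.25 CPM in Grhl2KO_Myc. The groups overlapped, and the log2 fold change against wildtype was -0.65 (SE 0.24, edgeR adjusted p = 0.12). With DESeq2 it was called (-0.66, adjusted p = 0.04). Slc6a6 had -0.05 (95% interval -0.22 to 0.13) and Slc6a13, a GABA and taurine carrier, -0.30 (SE 0.28).

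Apical carriers varied widely between the libraries of 1 group. The 3 libraries with the lowest proximal tubule score were also the 3 lowest of 12 in 13 of the 37 transporters, against 6.43% of all genes tested. This held for all 6 genes grouped as apical, but not for the proton-coupled Slc36a2. The 3 libraries were picked for their markers, and the apical transporters are themselves proximal tubule genes, so this describes which carriers go with the score. Slc3a1, whose loss causes cystinuria, was at 38.6 to 67.6 CPM in these 3 libraries and at 126 to 230 CPM in the other 9. Slc7a9, its light chain, was at 8.11 to 13.6 CPM against 23.8 to 42.5 CPM. Heavy and light chain were low in the same libraries.

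The sodium-coupled apical carriers showed the same split. Slc6a18 was at 63.2 to 93.8 CPM in the 3 libraries and at 178 to 262 CPM in the others. Slc6a20a, a carrier of proline, was at 1.67 to 2.48 CPM against 6.93 to 11.0 CPM. Its near copy Slc6a20b, whose reads the authors' counting may not separate from those of Slc6a20a, was at 3.07 to 10.2 CPM against 23.2 to 51.0 CPM. Slc1a1, the apical glutamate carrier, was at 15.6 to 22.4 CPM against 42.9 to 64.0 CPM. None of these ranges met.

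Beyond the apical membrane the split was narrower and reached only some genes. Slc7a12, an exchanger known from the mouse kidney, was at 2.62 to 11.6 CPM in the 3 libraries and at 14.7 to 31.9 CPM in the others. Slc7a7 was at 24.6 to 26.6 CPM against 35.7 to 79.5 CPM, and Slc43a2, a basolateral carrier of large neutral amino acids, at 46.7 to 50.3 CPM against 67.4 to 105 CPM. Slc6a13 was at 19.9 to 25.1 CPM against 32.1 to 51.3 CPM. Slc1a2, Slc7a10 and Slc36a1 made up the 13, with narrow gaps in Slc7a10 (3.88 to 4.03 against 4.08 to 5.49 CPM) and Slc36a1 (21.2 to 24.8 against 25.2 to 40.4 CPM). None of the 7 glutamine and small neutral uptake genes was among them. Slc43a1, a relative of Slc43a2, was the 1 transporter highest in these 3 libraries, at 13.8 to 16.5 CPM against 10.5 to 13.5 CPM.

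**Figure D4:**
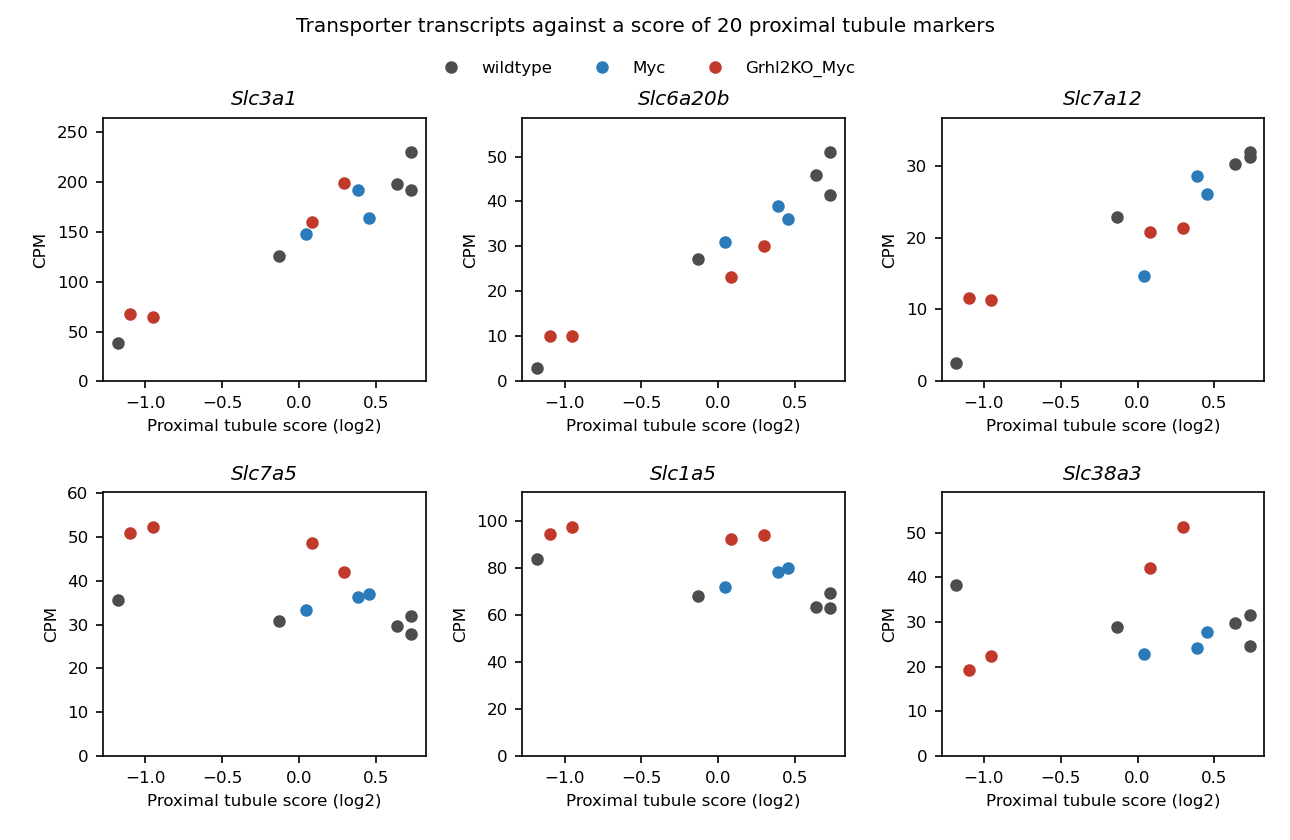
Each panel plots CPM of 1 transporter against the proximal tubule score (mean log2 CPM of 20 markers relative to the mean of the 12 libraries), with 1 point per library coloured by group. Slc3a1, Slc6a20b and Slc7a12 are low in the 3 libraries with scores from -1.18 to -0.95, whereas the Slc7a5 and Slc1a5 points of Grhl2KO_Myc stand above the others at both ends of the score.

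Of the low libraries 2 are Grhl2KO_Myc and 1 is wildtype, and the apical genes had wide errors in the comparison of genotypes. A difference of genotype in the proximal tubule and a difference between single libraries cannot be told apart here. Between Grhl2KO_Myc and wildtype the log2 fold change was -0.35 for Slc3a1 (SE 0.45, edgeR adjusted p = 0.69), -0.45 for Slc7a9 (SE 0.41) and -0.18 for Slc6a18 (SE 0.36). It was -0.68 for Slc6a20a (SE 0.51), -0.88 for Slc6a20b (SE 0.58), -0.51 for Slc1a1 (SE 0.35) and -0.55 for Slc7a12 (SE 0.51). With the 3 libraries left out these values were -0.06, -0.21, 0.09, -0.30, -0.64, -0.32 and -0.47, and none was called. Without wildtype 4 alone, Slc6a20b had -1.17 (adjusted p = 0.033) and Slc7a12 -0.84 (adjusted p = 0.042). With the score as a covariate, Slc3a1 turned to 0.38 (adjusted p = 0.046). That score is made of proximal tubule genes and was low in more Grhl2KO_Myc than wildtype libraries, so this fit cannot separate it from genotype.

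Slc7a5, Slc1a5 and Slc1a3 were called against wildtype also without the 3 libraries, with log2 fold changes of 0.59 (edgeR adjusted p = 0.0036), 0.50 (0.0023) and 0.48 (0.019). The other call in that fit was Slc38a3, which makes 4 of 37, where 9.48% of all genes were called. Slc7a1 (0.27, adjusted p = 0.11) and Slc36a2 (-1.45, adjusted p = 0.10) were not called there. Within their groups, Slc7a5, Slc1a5 and Slc1a3 were highest in the libraries low in proximal tubule transcripts. In that order, wildtype 4 had 35.6, 83.7 and 16.5 CPM. Grhl2KO_Myc 3 had 51.0, 94.6 and 20.4 CPM, and Grhl2KO_Myc 4 had 52.4, 97.7 and 20.7 CPM. A relation of these genes to the score was not tested. Restricted to the libraries below 10 CPM of Ddx3y, with 2 Grhl2KO_Myc and 4 wildtype libraries, Slc7a5 was the 1 call, where 0.436% of all genes were called.

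Between Grhl2KO_Myc and Myc, 1 of the 37 transporters was called, against 0.842% of all genes. This comparison shares the Grhl2KO_Myc libraries with the one before. For Slc7a5 the log2 fold change was 0.45 (SE 0.092) with an edgeR adjusted p of 0.044, and the call held in 9 of 19 alternatives. The adjusted p was 0.23, 0.16 and 0.09 without Myc 1, 2 or 3, and 0.098, 0.12 and 0.13 without Grhl2KO_Myc 2, 3 or 4. The libraries did not overlap for 6 transporters that were higher and 4 that were lower, against 16.8% of all genes. The median log2 fold change of the 37 was -0.08, against 0.00 over all genes.

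The next smallest p-values in this comparison belonged to genes already named. The log2 fold change was 0.57 for Slc1a3 (SE 0.13, edgeR adjusted p = 0.065), while Slc36a2 had -1.57 (SE 0.41, 0.12) and Slc1a5 0.30 (SE 0.087, 0.15). Slc6a9 had 0.29 (SE 0.10), Slc38a1 0.22 (SE 0.076), Slc7a6 0.15 (SE 0.053), Slc1a4 0.27 (SE 0.099) and Slc7a2 0.27 (SE 0.11), with adjusted p from 0.23 to 0.33. Slc36a1 had -0.40 (SE 0.18), Slc1a2 -0.67 (SE 0.32) and Slc38a4 -0.30 (SE 0.15). For Slc7a1 the value was 0.10 (95% interval -0.08 to 0.28), and for Slc3a2 0.00 (interval -0.23 to 0.22).

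Between Myc and wildtype, 0 of the 37 transporters were called by edgeR, DESeq2 or limma-voom. Of all genes, 0.00421% were called by edgeR and 0.203% by DESeq2. Myc 1 had 5.55% of its counts on ribosomal RNA-like genes, against 0.16 to 0.58% in the other libraries. Both comparisons with the Myc group include this library. The log2 fold changes ran from -0.30 to 0.32 with a median of -0.02. An unadjusted p under 0.05 was reached by 2 genes. Slc7a1 had 0.24 (SE 0.088, unadjusted p = 0.018) and Slc7a5 0.19 (SE 0.087, unadjusted p = 0.049), both with an adjusted p of 1.0 and with overlapping libraries. Slc1a5 had 0.14 (95% interval -0.02 to 0.30) and Slc6a9 0.13 (interval -0.05 to 0.32). Slc38a9 had -0.09, Slc6a6 -0.11, Slc43a1 -0.14, Slc38a7 -0.06 and Slc38a2 0.08, each with an interval that includes 0. Slc38a3 had -0.30, Slc6a12 -0.25 and Slc1a2 0.32, with SE of 0.27, 0.26 and 0.30.

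**Figure D5:**
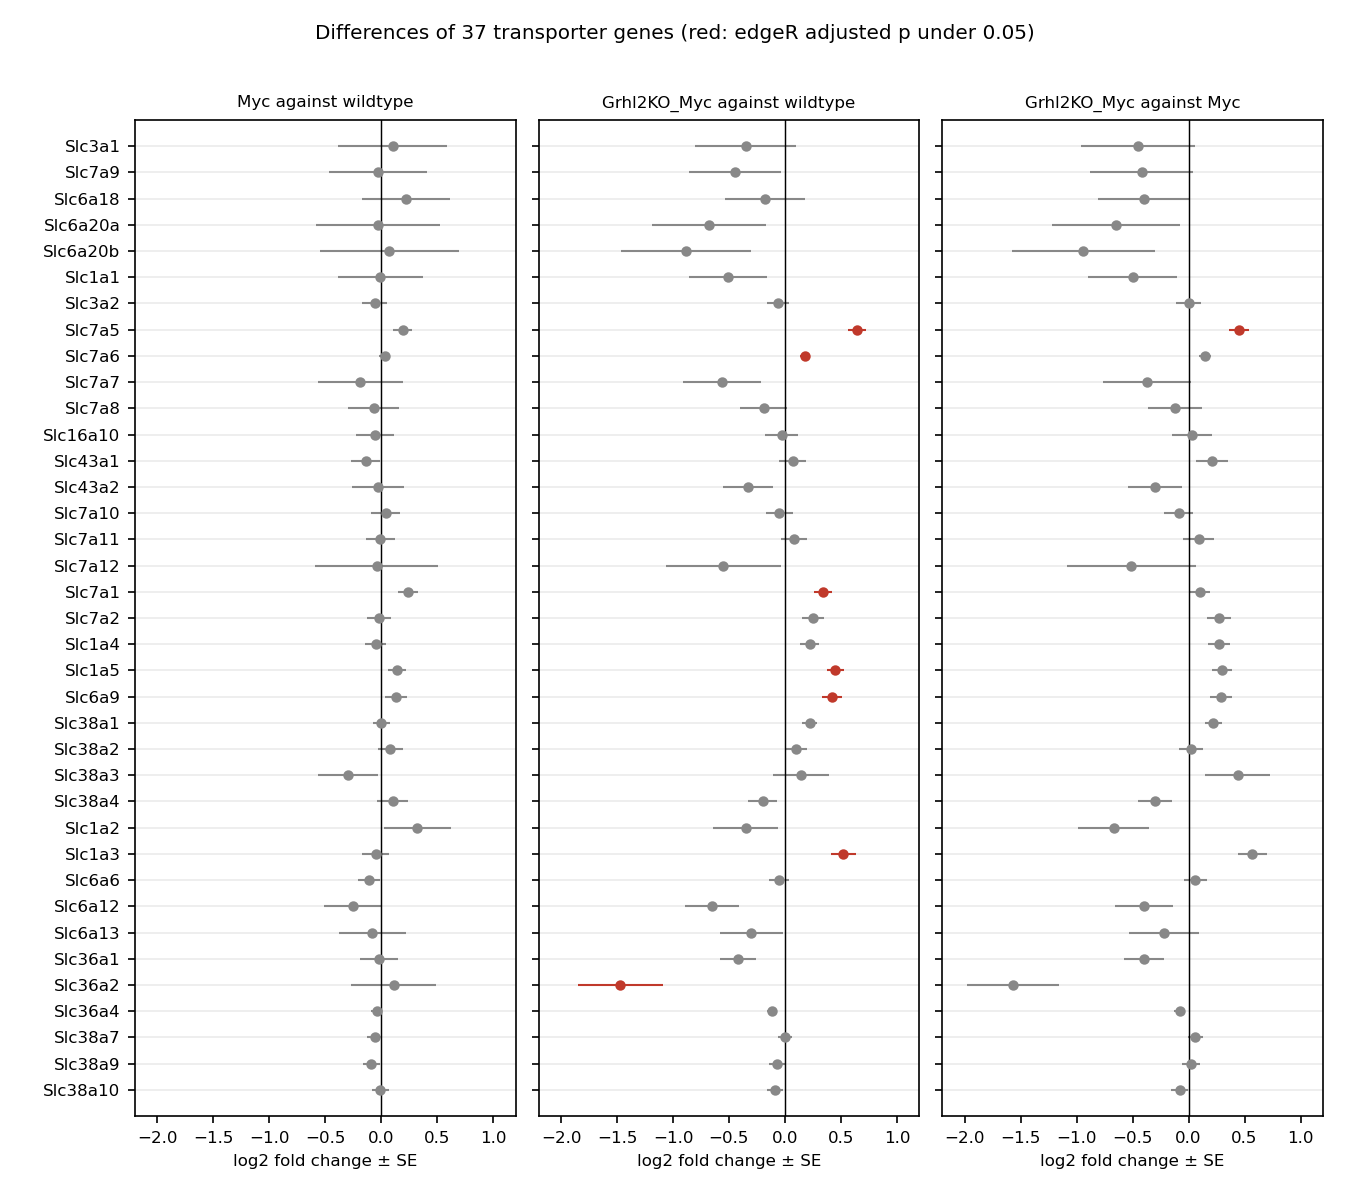
Points give the log2 fold change of each of the 37 transporters and bars its SE, in 3 panels: left, Myc over wildtype; middle, Grhl2KO_Myc over wildtype; right, Grhl2KO_Myc over Myc; red marks an edgeR adjusted p under 0.05. The middle panel holds 7 red points, the right panel 1 and the left panel none, and the apical genes have among the longest bars.

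The remaining exchangers and facilitated carriers showed small differences. Slc7a11, known as a target of ATF4 and of oxidative stress signalling, was at 13.3, 16.4, 13.6, 15.4 and 13.8 CPM in wildtype, 16.2, 14.1 and 12.8 CPM in Myc and 19.2, 15.8, 12.4 and 13.8 CPM in Grhl2KO_Myc. The groups overlapped, with a log2 fold change against wildtype of 0.08 (95% interval -0.16 to 0.32, edgeR adjusted p = 0.75). Slc7a10, an exchanger of small neutral amino acids, had -0.05 (interval -0.28 to 0.18), and Slc16a10, a facilitated carrier of aromatic amino acids, -0.03 (interval -0.33 to 0.27). Slc43a1 had 0.07 (interval -0.16 to 0.31) and Slc43a2 -0.33 (SE 0.22).

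Genes of the amino acid response, Atf4 and genes known as targets of the transcription factor it encodes, were the pathway list with the most calls. Of 31 tested, 9 were higher and 1 lower in Grhl2KO_Myc than in wildtype, with a median log2 fold change of 0.19. The median over all genes was -0.01, and 6.67% of all genes were called. Psat1, of serine synthesis, was at 57.7 ± 5.47 CPM in wildtype and 91.8 ± 7.0 CPM in Grhl2KO_Myc (log2 fold change 0.67, SE 0.087, edgeR adjusted p = 0.00099). Mthfd2, of mitochondrial folate metabolism, was at 14.0 ± 2.62 and 27 ± 2.30 CPM (0.95, SE 0.13, adjusted p = 0.0014). Aldh18a1, of proline synthesis, was at 43.0 ± 3.89 and 64.3 ± 7.15 CPM (0.58, SE 0.083, adjusted p = 0.0018). The lower gene was Vldlr, a lipoprotein receptor, at 126 ± 6.85 and 92.5 ± 6.19 CPM (-0.45, SE 0.056, adjusted p = 0.00078). Atf4 itself was at 114 ± 23.2 and 118 ± 2.47 CPM (0.05, SE 0.11, adjusted p = 0.82). Several stress response members of the list were not called either. Trib3 had 0.66 (edgeR adjusted p = 0.09), Chac1 0.46 (0.22), Atf3 0.45 (0.36) and Ddit3 0.10 (0.59). Sesn2 had -0.06 (0.63) and Nupr1 -0.20 (0.62). Against Myc 1 of the 31 was called, Mars, a transfer RNA ligase (0.29, SE 0.057, adjusted p = 0.036), and 17 had an unadjusted p under 0.05. Between Myc and wildtype 0 were called by edgeR, and 5 had an unadjusted p under 0.05.

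Carriers and partners outside the 37 gave 0 calls by edgeR of 30 tested in each of the 3 comparisons, with 5 at an unadjusted p under 0.05 for Grhl2KO_Myc against wildtype. The smallest p belonged to Ctns, the lysosomal cystine exporter, at 27.7 ± 1.27 CPM in wildtype and 24.9 ± 0.315 CPM in Grhl2KO_Myc (log2 fold change -0.15, SE 0.046, edgeR adjusted p = 0.068). Slc7a4 had 0.40 (adjusted p = 0.078), Slc6a7, a proline carrier, -0.81 (0.12) and Slc15a2, a peptide carrier of the late proximal tubule, -0.62 (0.13). The next 3 lists had few calls, to be read against the 4.06% of all genes called higher and 2.61% called lower. Of 28 tested genes of amino acid sensing by mTORC1, 1 was higher and 1 lower. Rragb, a GTPase of the sensing complex, was higher (5.70 ± 0.858 against 7.65 ± 0.214 CPM, log2 fold change 0.42, SE 0.099, edgeR adjusted p = 0.026). Fnip1, a partner of folliculin, was lower (36.5 ± 2.20 against 31.1 ± 1.75 CPM, -0.23, SE 0.064, adjusted p = 0.047). Of 25 genes of amino acid breakdown in the kidney, Prodh, which degrades proline, was higher (26.3 ± 4.05 against 35.3 ± 4.95 CPM, 0.42, SE 0.12, adjusted p = 0.047). Of 10 regulators of renal carriers, 2 were lower. Hnf4a, a transcription factor of the proximal tubule and also a marker in the score, was at 178 ± 32.8 CPM in wildtype and 114 ± 13.7 CPM in Grhl2KO_Myc (-0.65, SE 0.13, adjusted p = 0.012). Klhl3, an adaptor of a ubiquitin ligase of the distal tubule, was at 9.29 ± 1.46 and 5.43 ± 0.576 CPM (-0.77, SE 0.14, adjusted p = 0.0066). No gene of these 4 lists was called by edgeR in the other comparisons. Against wildtype in Myc, 3, 0, 0 and 0 of them had an unadjusted p under 0.05, in the order of the lists given, and against Myc in Grhl2KO_Myc 1, 3, 4 and 4 did.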

How the data were processed

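The authors deposited a table of raw read counts for 46403 genes and 12 libraries, with a column of gene widths in bases that was used here for levels per kilobase; every column of values was matched to a labelled sample (0 left unmatched). Alignment was with HISAT2 to mm10, per the submitters' processing notes. The counter, its annotation and its treatment of shared reads are unstated in the sources used here. The library kit named in the labels' protocols keeps no strand.

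All 12 libraries entered a single edgeR 4.0.16 fit (R 4.3.3) by group, using TMM factors, filterByExpr and the quasi-likelihood F test, with Benjamini-Hochberg adjustment over 23742 genes. Intervals cover 95% under a normal approximation. DESeq2 1.42.0, limma-voom (limma 3.58.1), other scalings and filters, a replicate block, a Ddx3y term, the proximal tubule score as covariate, and sets with libraries left out were alternatives. The script was tested on simulated data. The most similar replicates, Grhl2KO_Myc 3 and 4, gave a chi-square over its degrees of freedom of 12.7, so no library was taken as a second run of another. This check cannot show whether libraries come from the same mouse.

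The members, gene lists and proximal tubule markers were chosen with earlier results of these data known, and roles were assigned by hand. Named in each comparison are called transporters and the 12 of smallest p. A preset group is named whatever its p, and from each pathway list up to 4 genes, plus Atf4 and some uncalled members of its list. Gene positions come from GENCODE M21 (mm10), in which 90.6% of the listed genes were found, and promoters from RefSeq (GRCm38.p6). Tables were handled with Python 3.11.15.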

Additional observations from a re-analysis of the deposited data

Results flagged for a closer look

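Each transporter was checked within wildtype (n = 5) and Grhl2KO_Myc (n = 4) for a library far from the rest of its group, and 6 of 74 such groups had one. Chance alone gives about 1 in 20. In wildtype 4, which also had the lowest proximal tubule score, Slc38a10 was low at 164 CPM (the next wildtype library was at 203 CPM) and Slc43a1 was high at 16.5 CPM (next 12.2 CPM). In Grhl2KO_Myc 2, Slc1a4 was high at 16.1 CPM (next 14.6 CPM) and Slc7a8 was high at 98.9 CPM (next 87.5 CPM). In Grhl2KO_Myc 1, Slc6a12 was high at 5.03 CPM (next 3.30 CPM). In Grhl2KO_Myc 3, Slc36a1 was low at 22.0 CPM (next 24.8 CPM). None of these 6 genes was called with all libraries.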

How the results depend on the processing

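The number of transporters called between Grhl2KO_Myc and wildtype, 7 with all libraries, against 6.67% of all genes, was 4 (9.48% of all genes) without the 3 libraries low in proximal tubule transcripts and 1 (0.436%) in the libraries below 10 CPM of Ddx3y, both of which leave 2 Grhl2KO_Myc libraries. Leaving out single libraries gave 3 (without Grhl2KO_Myc 3 or 4, 3.53% and 3.18% of all genes) to 12 (without wildtype 4, 7 higher and 5 lower, 15.9%), and 4 without wildtype 2 or 3 (3.79% and 3.73%). Between Grhl2KO_Myc and Myc the count of 1 (0.842% of all genes) became 3 with DESeq2 (3.37%), 2 with limma-voom (1.09%) and 3 with only the groups compared (271 of 23501 genes), and 0 with the Ddx3y term (0.665%), 0 in the libraries below 10 CPM of Ddx3y (0.0922%) and 0 to 1 on leaving out single libraries (0.288% to 0.692%). With the proximal tubule score as covariate Slc3a1 turned to 0.38, Slc6a20b to 0.24 and Slc7a12 to 0.45, in a fit that cannot separate the score from genotype. Slc38a3 against wildtype turned to -0.01 with limma-voom and -0.08 in the libraries below 10 CPM of Ddx3y, and ranged from -0.15 to 0.33 on leaving out single Grhl2KO_Myc libraries. The cause was not tested. Replicate numbers were not taken as pairs in the main fit. Same-numbered libraries had correlations of -0.11 to 0.229, which were not compared with those of other pairs and cannot settle whether a pairing exists. With the replicate block the counts were 6 against wildtype (4.18% of all genes) and 0 against Myc (0.371%). Under the block Slc7a1 (adjusted p = 0.068) and Slc7a6 (0.14) were not called against wildtype, and Slc6a12 was (-0.77, adjusted p = 0.015). Among 90 pairs of gene and comparison never called, 175 of 1786 estimates changed sign. Slc36a2, at 15 to 124 counts per library, is the called gene most limited by depth.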

Other observations

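Slc15a2, a peptide carrier outside the 37 genes, was chosen after its values were seen. It was at 63.4 ± 16.5 CPM in wildtype and 32.4 ± 4.76 CPM in Myc, and every Myc library lay below every wildtype library. The log2 fold change was -0.97 (SE 0.25), with an edgeR adjusted p of 0.71.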
